A study of Mus musculus with 62 samples.

Results

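The nuclear factor kappa B (NF-κB) subunits and their feedback genes were followed in mouse soleus, a hindlimb muscle rich in slow fibres, during the growth of melanomas that do or do not cause cachexia, a loss of muscle and fat seen with some tumours. They were chosen by symbol and are 10 of the 47643 genes measured: the subunit genes Rela, Relb, Nfkb1 and Nfkb2, the inhibitor genes Nfkbia, Nfkbib, Bcl3 and Nfkbiz, the ubiquitin-editing enzyme gene Tnfaip3 (A20) and the kinase gene Map3k8 (TPL2). All 10 passed the filter on low values, as 10 of the 13529 genes that were tested. Female mice of 2 months received melanoma cells of the cachectic kind (CAC) or of the non-cachectic kind (NCAC), or a mock injection (Con), and soleus was taken at 2, 4, 6 and 8 weeks. There were 7 libraries of CAC at 8 weeks and 5 of each of the other 11 groups, 62 in all. The sample entries name C57BL6/J as the strain, the design text names NCI Ath/nude, an athymic strain, and the extraction protocol speaks of LLC cells. The strain is therefore uncertain, and its label is the same for every group. The sample descriptions name melanoma cells, so the LLC cells of the protocol conflict with them, and melanoma is used here as in those descriptions. The labels do not say how many tumour lines or clones were used, and tumour and mock animals differ in both the tumour and its wasting effect. Levels are in TPM, a unit of transcript abundance that is scaled by transcript length and to a fixed total per library, from which read depth cannot be recovered.

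NF-κB is a family of dimeric transcription factors. In resting cells inhibitor of kappa B (IκB) proteins hold the dimers in the cytoplasm, and cytokines of the TNF and IL-1 families release them by having the inhibitor degraded. The dimers then switch on inflammatory genes and several of their own inhibitors, Nfkbia and Tnfaip3 among them, which closes a feedback loop. In skeletal muscle the pathway is known for its part in wasting: in mice, muscle lacking Nfkb1 or Bcl3 resists the atrophy of disuse.

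RefSeq promoter windows (GRCm38.p6, the mm10 build, from 250 bases before to 50 after each start) were searched for 6 of the 10 genes: Nfkb2, Rela, Bcl3, Nfkbia, Nfkbib and Tnfaip3. The kappaB consensus, the binding motif of the family, was searched on both strands with overlapping matches counted. It is held by 4.51% of all 32851 windows and, as some genes have several windows, by 5.14% of 27025 genes. It was found in windows of Nfkb2, Bcl3, Nfkbia and Tnfaip3 and not in those of Rela and Nfkbib. The stretches below are shown because they hold these matches, in capitals, in a subunit gene and in 3 inhibitors that behaved differently in the muscle. They lie at chr19:46304678-46304736 on the plus strand (Nfkb2), chr7:19822734-19822763 on the minus strand (Bcl3), chr12:55492648-55492696 on the minus strand (Nfkbia) and chr10:19015411-19015555 on the minus strand (Tnfaip3), and each is written 5′ to 3′ along its gene.
Nfkb2: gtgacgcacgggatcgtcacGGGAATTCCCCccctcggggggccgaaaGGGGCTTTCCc
Bcl3: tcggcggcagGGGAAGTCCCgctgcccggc
Nfkbia: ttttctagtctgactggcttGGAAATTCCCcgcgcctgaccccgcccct
Tnfaip3: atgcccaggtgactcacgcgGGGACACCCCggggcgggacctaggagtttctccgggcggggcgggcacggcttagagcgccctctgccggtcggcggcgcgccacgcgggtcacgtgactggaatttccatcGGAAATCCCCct
The first run of capitals in Nfkb2 holds 2 overlapping matches. Nfkb2 had 3 windows, each with a match, and the stretch shown is from 1 of them. The Bcl3 match starts 2 bases into the transcript and the Nfkbia match starts 29 bases before it. The letters TTCNNNGAA, a core of STAT binding sites, were in 8.30% of all windows and, among these genes, only in a window of Nfkb2. A match describes the letters of a window and not a bound site.

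Bcl3, Nfkbiz and Map3k8 were the 3 of the 10 genes that rose in CAC muscle against both Con and NCAC at 6 and at 8 weeks. The share of all genes that did so in all 4 comparisons, which share the CAC libraries, was not counted. Taken singly, 21.8% of all tested genes rose against Con and 18.8% against NCAC at 6 weeks, and 6.37% and 10.3% at 8 weeks. The 8-week calls of Map3k8 were each lost under an alternative, as given below. Bcl3, an atypical IκB that acts in the nucleus with p50 and p52, averaged 6.42 ± 1.44 TPM in CAC and 1.31 ± 0.28 TPM in Con at 6 weeks (SD, n = 5 each). At 8 weeks it averaged 13.6 ± 4.66 TPM in CAC (SD, n = 7) and 4.32 ± 0.96 TPM in Con (SD, n = 5). Tnfaip3 had lower means in CAC than in Con at every week and passed at none. At 6 weeks 7 of the 10 genes rose in CAC against Con, where 21.8% of all tested genes did, and at 8 weeks 4 of 10 rose, where 6.37% did. After median-of-ratios rescaling, which sets the typical gene of each library level, 4 of the 10 rose at 6 weeks (Nfkb2, Bcl3, Nfkbiz and Map3k8) and 1 fell (Tnfaip3), where 10.5% of all genes rose and 10% fell. Of all genes called at 6 weeks 84.9% were higher in CAC as deposited and 51.1% after rescaling. Fold changes are differences of log2(TPM + 1), which understate the change of low genes, and an adjusted p under 0.05 was the threshold for a call (limma, Benjamini-Hochberg over all 13529 genes). The median of all genes lay 0.16 higher in CAC than in Con at 6 weeks as deposited and 0.01 higher after rescaling. The p-values measure the spread between libraries, which the labels call biological replicates.

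**Figure D1:**
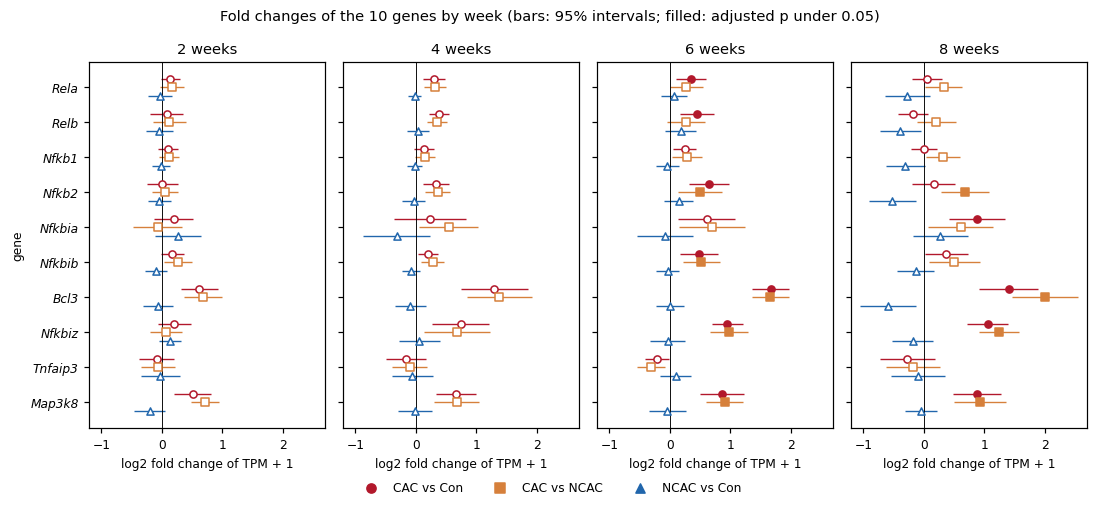
Log2 fold change of TPM + 1 (x axis) of the 10 genes (y axis) in CAC against Con, CAC against NCAC and NCAC against Con at each week, with 95% intervals as bars and filled symbols where the adjusted p is under 0.05. In CAC the points of Bcl3 lie farthest to the right at 6 and 8 weeks, and no NCAC against Con point is filled.

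In the same libraries the markers of other cell types moved too. At 6 weeks the summed level of 10 macrophage markers lay between 212 and 268 TPM in CAC and between 124 and 151 TPM in Con, with 8 of the 10 higher, and the 4 tested of 9 neutrophil markers were all higher. At 8 weeks the macrophage sum lay between 949 and 2612 TPM in CAC, between 389 and 2987 TPM in NCAC and between 1113 and 2184 TPM in Con. There 0 macrophage markers rose, 1 fell, and 2 of 4 neutrophil markers rose. Adipocyte markers rose in 4 of 6 cases at 6 weeks and in 0 of 6 at 8 weeks. Of 7 endothelial markers 3 rose and 1 fell at 6 weeks, and of 7 tenocyte markers 2 fell at 6 weeks and 4 at 8 weeks. Of 7 fibro-adipogenic progenitor markers 1 rose and 1 fell at 6 weeks, and the 1 tested of 8 lymphocyte markers fell (-0.51). Beside these counts, 21.8% of all tested genes rose and 3.87% fell at 6 weeks, and 6.37% rose and 6.05% fell at 8 weeks. None of the macrophage or adipocyte markers was at 0 in a whole group, and the 8 muscle fibre markers were detected in every group. The part of these cells in the changes of the NF-κB genes was not tested, and in bulk muscle fewer cells of a type and less RNA per cell cannot be told apart. 3 libraries held at least 500 TPM of the fast myosin Myh4 (CAC replicate 4 of 2 weeks, NCAC replicate 3 of 6 weeks and CAC replicate 6 of 8 weeks).

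Of the subunits, Rela (p65) carries the activation domain of the classical dimer. Its 5 CAC libraries of 6 weeks held 24.5, 25.1, 19.3, 26.1 and 18.3 TPM, against 17.9, 15.9, 19.3, 15.5 and 18.9 TPM in Con. CAC replicates 3 and 5 lay inside the Con range, so the groups overlapped. Rela rose by 0.35 (SE 0.11, adjusted p = 0.0430), but the call was lost without CAC replicate 1 (0.0992), 2 (0.0931) or 4 (0.0998) and without Con replicate 1 (0.0635), 2 (0.1003), 3 (0.0569), 4 (0.0983) or 5 (0.0555). It was also lost with no filter on low values (0.0900) and after rescaling (0.17, adjusted p = 0.143). Against NCAC Rela stood at 0.27 (SE 0.13, adjusted p = 0.126). At 8 weeks its level was higher in every treatment, at 30.1 ± 3.38 TPM in CAC (n = 7), 24.2 ± 5.57 TPM in NCAC (n = 5) and 29.0 ± 4.34 TPM in Con (n = 5, SD), and CAC against Con stood at 0.05 (95% interval -0.19 to 0.30). At 4 weeks all 5 CAC libraries, between 19.5 and 25.3 TPM, lay above all 10 others, whose highest was 18.8 TPM, with a fold change of 0.30 against Con (adjusted p = 0.161).

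Relb, the partner of p52 in the noncanonical dimer, was the least abundant subunit. At 6 weeks it held 6.94, 5.24, 3.99, 6.48 and 4.87 TPM in CAC, against 4.23, 2.93, 4.00, 3.74 and 3.68 TPM in Con. 1 CAC library lay in the Con range and 4 lay above it. Relb rose by 0.45 (SE 0.13, adjusted p = 0.0282), a call that was lost without CAC replicate 1 (0.0714) or 4 (0.0690), without Con replicate 2 (0.0720), 4 (0.0557) or 5 (0.0512), with no filter (0.0718) and after rescaling (0.30, adjusted p = 0.0637). Against NCAC it stood at 0.27 (adjusted p = 0.189). At 4 weeks its 5 CAC libraries were tight, at 5.23 ± 0.22 TPM, and all lay above all 10 others, with Con at 3.78 ± 0.42 TPM (SD, n = 5 each, 0.38, adjusted p = 0.0873). At 8 weeks the highest mean belonged to Con, at 7.22 ± 0.93 TPM (n = 5), beside 6.28 ± 0.99 TPM in CAC (n = 7, SD), a difference of -0.18 (adjusted p = 0.337).

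Nfkb1 encodes p105, the precursor of the p50 subunit, and Nfkb2 encodes p100, the precursor of p52. Nfkb1 varied least: its group means ran from 11.5 to 16.6 TPM over all 12 groups, and it passed in no comparison of CAC. At 6 weeks it stood at 14.3 ± 1.65 TPM in CAC and 11.8 ± 0.29 TPM in Con (SD, n = 5 each), 0.25 apart (SE 0.09, adjusted p = 0.0563). Nfkb2 moved more. Its levels at 6 weeks were 25.3, 14.1, 14.9, 17.97 and 12.8 TPM in CAC, against 10.7, 13.7, 13.0, 10.97 and 9.07 TPM in NCAC and 10.8, 8.90, 11.5, 9.65 and 10.1 TPM in Con. CAC replicate 1 was by far the highest, and the lowest CAC library still lay above every Con library. Nfkb2 rose by 0.65 against Con (SE 0.15, adjusted p = 0.0123), and the call held without each library in turn, at 0.50 to 0.74 (adjusted p 0.00508 to 0.0330).

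Against NCAC Nfkb2 rose by 0.50 at 6 weeks (SE 0.17, adjusted p = 0.0496) and by 0.68 at 8 weeks (SE 0.19, adjusted p = 0.0357). The 6-week call was lost without CAC replicate 1 (0.106), 2 (0.0565), 3 (0.0546) or 4 (0.107), without NCAC replicate 1 (0.0970), 3 (0.0525), 4 (0.0859) or 5 (0.111). Rescaling (0.0807) and no filter (0.127) ended it too, and of the 7 alternatives other than leaving out a library 3 kept it. The 8-week call was lost without CAC replicate 1 (0.0674), 2 (0.0605), 4 (0.0588), 5 (0.0673) or 7 (0.0566), without NCAC replicate 1 (0.0654), 3 (0.0777) or 4 (0.0804), with no filter (0.0630) and by rescaling (0.103). Here 4 of the 7 alternatives other than leaving out a library kept the call. The 8-week levels were 16.4 ± 3.67 TPM in CAC (n = 7), 9.89 ± 2.52 TPM in NCAC (n = 5) and 14.4 ± 2.72 TPM in Con (n = 5, SD), so CAC lay nearer to Con (0.16, adjusted p = 0.561) than to NCAC. CAC against Con and CAC against NCAC share the CAC libraries. The gene Psd overlaps the end of Nfkb2 on the other strand and reached at most 0.955 TPM in any library, and whether counting used strand is not stated.

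**Figure D2:**
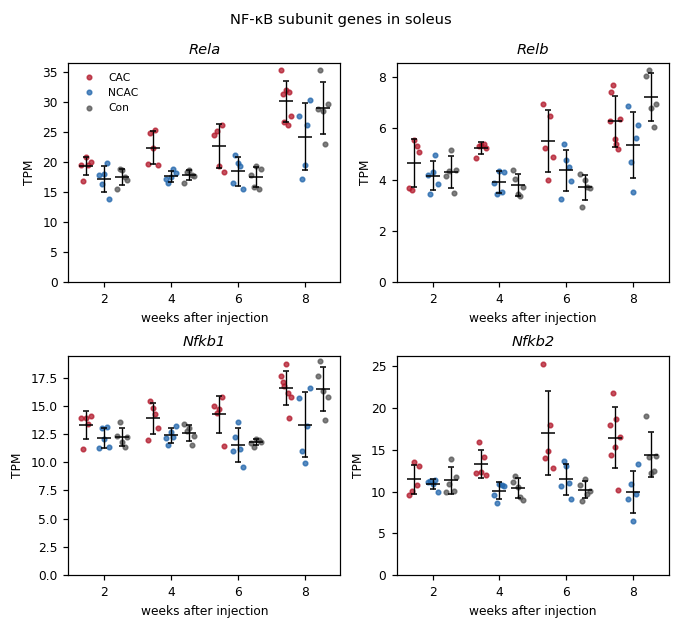
TPM of the 4 subunit genes (y axis, from 0) against weeks after injection (x axis), 1 point per library, with CAC left of NCAC and Con and the mean ± SD in black. Rela and Nfkb1 were higher at 8 weeks in CAC and Con alike, while Nfkb2 reached 25.3 TPM in 1 CAC library at 6 weeks.

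Nfkbia encodes IκBα, the fast feedback inhibitor, and was the most abundant of the 10 genes in every group. At 8 weeks its CAC libraries ran from 65.1 TPM over a median of 105 TPM to 158 TPM (n = 7), against 58.5, 62.04, 47.3, 49.4 and 71.8 TPM in Con. CAC replicate 5 lay inside the Con range and the other 6 lay above it. Nfkbia rose by 0.88 against Con (SE 0.22, adjusted p = 0.0211), and the call was lost without Con replicate 3 (0.0582) or 4 (0.0518). Against NCAC, at 84.6, 41.3, 86.5, 79.2 and 66.0 TPM, it stood at 0.61 (adjusted p = 0.120). At 6 weeks the CAC mean was 68.3 ± 24.2 TPM and the Con mean 43.0 ± 8.81 TPM (SD, n = 5 each), with a fold change of 0.61 (SE 0.22, adjusted p = 0.0559). Con replicate 5 of 4 weeks held 85.3 TPM, as much as the highest CAC library of that week (85.5 TPM).

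Nfkbib encodes IκBβ, an inhibitor that is resynthesised more slowly. Its 6-week libraries held 52.8, 32.3, 32.1, 41.5 and 30.2 TPM in CAC, against 23.5, 26.1, 27.2, 27.1 and 23.8 TPM in NCAC and 26.7, 27.2, 24.5, 30.9 and 22.3 TPM in Con. All CAC libraries lay above NCAC, and CAC replicate 5 lay below the highest Con library. It rose by 0.48 against Con (SE 0.15, adjusted p = 0.0319) and by 0.52 against NCAC (SE 0.14, adjusted p = 0.0220). The call against Con was lost without CAC replicate 1 (0.0579) or 4 (0.0762), without Con replicate 1 (0.0503), 2 (0.0578), 3 (0.0696) or 5 (0.0688), with no filter (0.0889) and after rescaling (0.101). The call against NCAC was lost without CAC replicate 4 (0.0566) or NCAC replicate 1 (0.0529) and with no filter (0.0646). At 8 weeks the CAC mean of 31.5 ± 10.2 TPM (SD, n = 7) held 1 library of 53.7 TPM, and the fold change against Con was 0.37 (adjusted p = 0.159). Sirt2, on the other strand, shares 778 bases with Nfkbib and held 41.4 to 77.3 TPM, so the 2 genes could share reads if counting ignored strand, which is not stated.

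Bcl3 lies at chr7:19808462-19822770 on the minus strand (mm10). The 6-week libraries held 8.23, 7.39, 5.73, 6.25 and 4.52 TPM in CAC, against 1.29, 1.75, 1.08, 1.39 and 1.09 TPM in NCAC and 1.31, 1.38, 1.26, 0.905 and 1.70 TPM in Con. At 8 weeks the CAC libraries ran from 6.95 TPM over a median of 12.7 TPM to 18.5 TPM (n = 7), against 2.88, 1.17, 2.14, 3.197 and 3.50 TPM in NCAC and 5.29, 4.94, 3.50, 3.09 and 4.77 TPM in Con. Every CAC library lay above all 10 others of its week, in each of the 4 weeks. The lowest CAC library of any week, at 1.82 TPM in week 2, stood just above the highest NCAC or Con library of that week, at 1.76 TPM. Against Con Bcl3 rose by 1.67 at 6 weeks (SE 0.14, adjusted p = 1.4e-05) and by 1.41 at 8 weeks (SE 0.23, adjusted p = 0.00324), and against NCAC by 1.66 (SE 0.14, adjusted p = 1.4e-05) and 2.00 (SE 0.25, adjusted p = 0.00159). All 4 calls held without each library in turn and under every other alternative.

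The early values of Bcl3 are large beside the control spread but did not pass. At 2 weeks the CAC libraries held 1.82, 2.75, 3.71, 2.44 and 2.05 TPM, against 1.12, 1.76, 1.39, 0.987 and 1.20 TPM in Con, with a fold change of 0.62 (SE 0.14, adjusted p = 0.437). At 4 weeks they held 3.47, 6.70, 3.16, 9.06 and 2.98 TPM, against 1.45, 1.89, 1.25, 0.974 and 1.04 TPM in Con, with a fold change of 1.30 (SE 0.25, adjusted p = 0.0873). Replicates 2 and 4 of the CAC group of 4 weeks were about as high as the libraries of 6 weeks, and the other 3 were lower. In order of mean level the CAC groups of 8, 6 and 4 weeks led, and the steps that exceeded the SDs of both neighbours were those from CAC at 8 weeks to CAC at 6 weeks and from CAC at 2 weeks to Con at 4 weeks. The antisense gene Gm16174 shares 2073 bases with Bcl3. It averaged 0.612 TPM in CAC and 0.0740 TPM in Con at 6 weeks, and 3.73 TPM in CAC and 0.870 TPM in Con at 8 weeks, so reads of the 2 genes cannot be told apart if counting ignored strand.

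Nfkbiz encodes IκBζ, a nuclear IκB that helps NF-κB switch on secondary response genes. In week 6 its libraries held 5.80, 6.07, 4.59, 6.22 and 4.25 TPM in CAC, against 2.45, 3.12, 2.36, 1.65 and 1.66 TPM in NCAC and 2.63, 2.15, 1.71, 2.35 and 2.64 TPM in Con. At 8 weeks CAC ran from 5.70 TPM over a median of 7.79 TPM to 10.5 TPM (n = 7), against 2.97, 1.82, 2.45, 2.85 and 2.89 TPM in NCAC and 2.90, 3.34, 2.66, 2.29 and 4.43 TPM in Con. CAC did not overlap the other groups at either week. Nfkbiz rose against Con by 0.95 at 6 weeks (SE 0.12, adjusted p = 2.68e-04) and by 1.06 at 8 weeks (SE 0.16, adjusted p = 0.00232), and against NCAC by 0.98 (SE 0.14, adjusted p = 7.11e-04) and 1.25 (SE 0.15, adjusted p = 0.00121), and all 4 calls held under every alternative. At 4 weeks CAC replicates 2 and 4, the ones high in Bcl3, held 6.33 and 5.89 TPM and the other 3 held 3.01, 3.09 and 2.20 TPM, against a Con mean of 1.90 ± 0.24 TPM (SD, n = 5, adjusted p = 0.174). At 2 weeks the group means were 2.24 TPM in CAC and 1.78 TPM in Con (0.21, adjusted p = 0.614).

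Map3k8 is a kinase held inactive by p105 that passes NF-κB pathway signals to ERK. Its libraries of 6 weeks held 5.47, 4.46, 4.10, 4.39 and 2.69 TPM in CAC, against 1.80, 2.00, 1.54, 2.01 and 1.42 TPM in NCAC and 3.15, 1.56, 1.5, 1.61 and 1.60 TPM in Con. Con replicate 1, far above the rest of its group, and CAC replicate 5 made the CAC and Con groups overlap. At 8 weeks CAC ran from 3.92 TPM over a median of 5.90 TPM to 9.40 TPM (n = 7), above all Con libraries (2.75 to 3.64 TPM) and all NCAC libraries (2.09 to 3.44 TPM). Map3k8 rose against Con by 0.86 at 6 weeks (SE 0.17, adjusted p = 0.00457) and by 0.88 at 8 weeks (SE 0.19, adjusted p = 0.0101), and against NCAC by 0.91 (SE 0.14, adjusted p = 9.37e-04) and 0.93 (SE 0.20, adjusted p = 0.0146). Rescaling ended the 8-week call against NCAC, and the replicate block ended that against Con (adjusted p = 0.0522). At 2 weeks its 5 CAC libraries, at 2.27 to 3.604 TPM, lay above all 10 others, whose highest was 2.12 TPM (0.51 against Con, adjusted p = 0.437, and 0.71 against NCAC, adjusted p = 0.0559).

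Tnfaip3 (A20), which removes activating ubiquitin chains upstream of the inhibitors, ran low and the other way. The libraries of 6 weeks held 0.623, 0.814, 0.669, 0.903 and 0.675 TPM in CAC, against 1.44, 1.59, 1.05, 0.911 and 0.838 TPM in NCAC and 1.16, 0.782, 0.761, 1.19 and 1.20 TPM in Con. CAC was the lowest of all 12 group means, and 3 of its 5 libraries lay below all 10 others of the week, though the groups overlapped. The fold change was -0.21 against Con (SE 0.09, adjusted p = 0.0985) and -0.31 against NCAC (SE 0.11, adjusted p = 0.0581), and after rescaling it passed against Con at -0.30 (adjusted p = 0.0305) and against NCAC at -0.40 (adjusted p = 0.0137). Against NCAC it also passed in the fit of all groups of the week (0.0366) and without NCAC replicate 5 (0.0443). At 8 weeks CAC held 0.996 to 3.67 TPM around a median of 1.498 TPM (n = 7), and Con held 1.49 to 3.53 TPM (-0.27, adjusted p = 0.435).

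**Figure D3:**
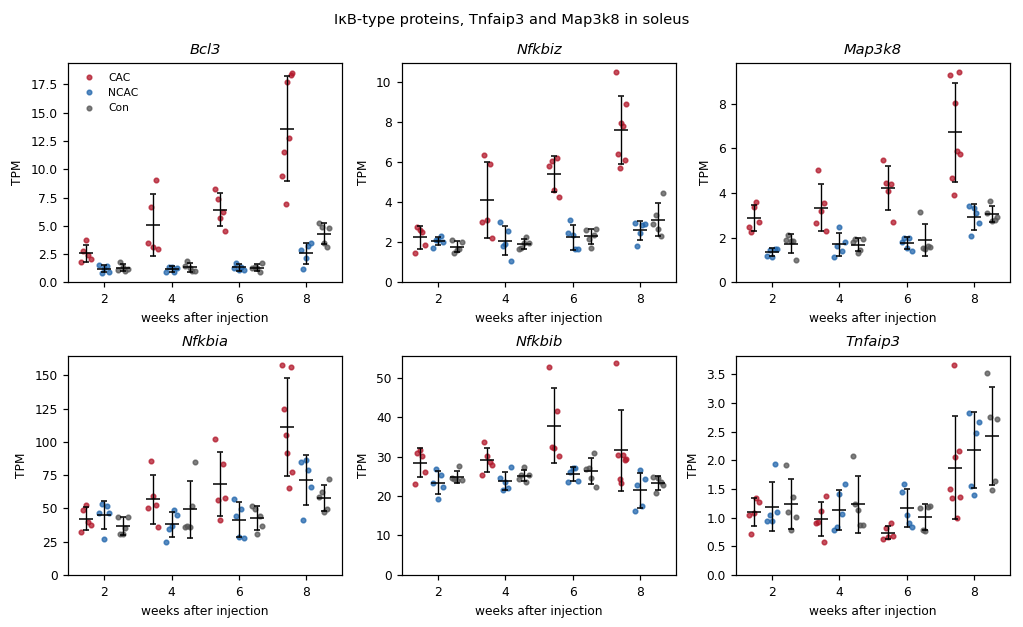
TPM of the inhibitor genes, Map3k8 and Tnfaip3 (y axis, from 0) against weeks after injection (x axis), 1 point per library, with CAC left of NCAC and Con and the mean ± SD in black. Bcl3 in CAC reached 18.5 TPM at 8 weeks, where the highest NCAC or Con library held 5.29 TPM. Up to 6 weeks NCAC and Con stayed at or below 1.89 TPM, and Tnfaip3 was lowest in CAC at 6 weeks.

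Across weeks, 2 of the 10 genes had a larger CAC effect, CAC minus Con, at 6 weeks than at 2 weeks, where 1.94% of all tested genes did. The effect of Bcl3 was larger by 1.05 (SE 0.20, adjusted p = 0.00755), a call lost in the fit of all 62 libraries (0.134). That of Nfkbiz was larger by 0.75 (SE 0.18, adjusted p = 0.0267), which was lost without CAC replicate 1 (0.0511) or Con replicate 5 (0.0518) of 2 weeks and without CAC replicate 1 (0.0551) or 4 (0.0523) or Con replicate 3 (0.0548) of 6 weeks. It was lost too with a pseudocount of 0.1 (0.0550), with no filter (0.0618) and in the fit of all libraries (0.224). Of the 7 alternatives other than leaving out a library 3 kept the Nfkbiz call. The difference for Map3k8, already high in CAC at 2 weeks, was 0.36 (95% interval -0.12 to 0.83, adjusted p = 0.416). Between 8 and 6 weeks the effect of 0 of the 10 genes differed by limma, where 0.192% of all genes passed, with 1 at an unadjusted p under 0.05, beside 14% of all genes. That gene was Relb, whose effect was smaller at 8 weeks (-0.63, SE 0.18, adjusted p = 0.101).

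At 2 weeks 0 of the 10 genes passed in CAC against Con by limma, where 0% of all genes did. An unadjusted p under 0.05 was reached by 2 of them, Bcl3 and Map3k8, and by 9.31% of all genes. At 4 weeks 0 passed, where 0.155% of all genes did, and 7, all higher in CAC, had an unadjusted p under 0.05, as did 16.4% of all genes. Without CAC replicate 5, the lowest of its group for both, Bcl3 (adjusted p = 0.0443, limma) and Map3k8 (0.0499) passed at 4 weeks. The share of all genes that passed in that fit is not given here. The libraries of CAC and Con did not overlap for 2 of the 10 genes at 2 weeks, where 2% of all genes were higher without overlap, and for 5 of 10 at 4 weeks (3.3%), 3 at 6 weeks (13.3%) and 3 at 8 weeks (3.98%). Against NCAC 0 passed at 2 weeks (0.0296% of all genes) and 4 weeks (0.2%), with 3 and 8 genes higher at an unadjusted p under 0.05, beside 17.4% and 21.9% of all genes. At 2 weeks Map3k8 passed without CAC replicate 2 (adjusted p = 0.0136, limma). At 4 weeks Rela (0.0489), Bcl3 (0.0356) and Map3k8 (0.0462) passed without CAC replicate 5. The shares of all genes in these fits are not given here either. Against NCAC 5 rose at 6 weeks (18.8% of all genes) and 4 at 8 weeks (10.3%).

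NCAC against Con gave 0 calls among the 10 genes at 2, 4, 6 and 8 weeks by limma, where 0.00739%, 0%, 0.00739% and 0% of all genes passed. At an unadjusted p under 0.05 there were 0, 0, 0 and 3, beside 11.9%, 3.46%, 2.81% and 15.5% of all genes, and all 3 were lower in NCAC at 8 weeks. These were Nfkb2 at -0.52 (SE 0.18, adjusted p = 0.268), Relb at -0.39 (SE 0.15, adjusted p = 0.289) and Bcl3 at -0.60 (SE 0.21, adjusted p = 0.271). In that comparison the median of all genes lay at -0.165 as deposited and at -0.0188 after rescaling. The median of the 10 genes after rescaling was -0.0827. Up to 6 weeks the NCAC and Con group means of Bcl3 lay between 1.17 and 1.32 TPM, those of Nfkbiz between 1.78 and 2.29 TPM and those of Map3k8 between 1.36 and 1.88 TPM.

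Mock-injected muscle itself differed between 8 and 6 weeks. There 8 of the 10 genes rose at 8 weeks, where 54.1% of all tested genes did, and the median gene lay 0.29 higher as deposited and at -0.02 after rescaling. Bcl3 rose by 1.19 (SE 0.14, adjusted p = 3.2e-05), to 4.32 ± 0.96 TPM at 8 weeks, against 1.31 ± 0.28 TPM at 6 weeks (SD, n = 5 each). Relb rose by 0.80 (SE 0.10, adjusted p = 6e-05), Tnfaip3 by 0.73 (SE 0.17, adjusted p = 0.00256), Rela by 0.69 (SE 0.11, adjusted p = 2.11e-04), Map3k8 by 0.51, Nfkb2 by 0.45, Nfkb1 by 0.45 and Nfkbia by 0.43. The exceptions were Nfkbiz at 0.31 (SE 0.14, adjusted p = 0.0687) and Nfkbib at -0.16 (SE 0.09, adjusted p = 0.129). After rescaling 4 of the 10 rose (Rela, Relb, Bcl3 and Tnfaip3) and 1 fell (Nfkbib, -0.53, adjusted p = 0.00182), where 31.8% of all genes rose and 31.8% fell, and Nfkb1, Nfkb2, Nfkbia and Map3k8 no longer passed. The Nfkbia call was also lost without Con replicate 3 (0.0704) or 5 (0.0690) of 6 weeks or 1 (0.0508), 2 (0.0599) or 5 (0.0739) of 8 weeks, with no filter (0.0700), in the fit of all libraries (0.134) and in that of the groups of both weeks (0.160).

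Markers of other cells also changed in the same Con libraries of 8 weeks, where 54.1% of all tested genes rose and 9.65% fell. All 10 macrophage markers rose, with a median of 3.01, and their sum lay between 1113 and 2184 TPM at 8 weeks and between 124 and 151 TPM at 6 weeks. All 6 adipocyte markers rose (median 3.36), as did 4 of 4 tested neutrophil markers, and 4 of 8 muscle fibre markers fell. Of 7 fibro-adipogenic progenitor markers 6 rose (median 2.24), 4 of 7 endothelial markers rose and 3 of 5 smooth muscle markers fell. The endothelial share lay near that of all genes. Marker counts are as deposited and were not made after rescaling. The part of these cells in the levels of the NF-κB genes was not tested. The same Con libraries serve as controls for CAC at 8 weeks, where Rela, Relb, Nfkb1, Nfkb2, Nfkbib and Tnfaip3 did not pass and Bcl3, Nfkbiz, Map3k8 and Nfkbia did. Between 6 and 2 weeks 0 of the 10 genes passed in Con by limma (0% of all genes), with 1, Nfkbiz, at an unadjusted p under 0.05, beside 8.97% of all genes.

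**Figure D4:**
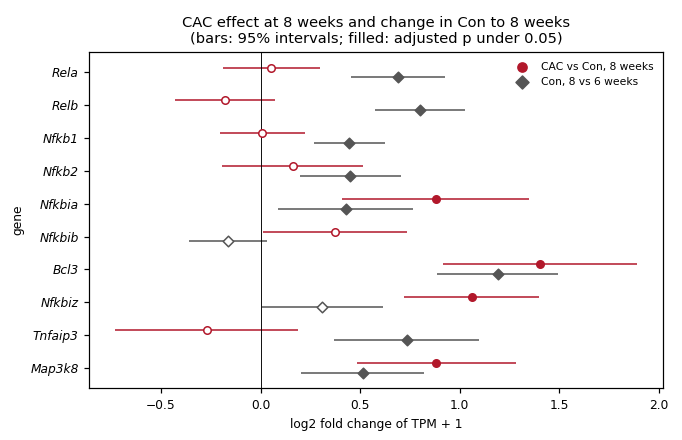
Log2 fold change of TPM + 1 (x axis) of each gene (y axis) in CAC against Con at 8 weeks and in Con at 8 against 6 weeks, with 95% intervals as bars and filled symbols where the adjusted p is under 0.05. Rela, Relb, Nfkb1, Nfkb2 and Tnfaip3 passed in the change of Con with time and not in CAC against Con, Nfkbiz passed in CAC against Con and not with time, and the 2 comparisons share the Con libraries of 8 weeks.

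Upstream of the subunits, ligand genes were few: 3 of 10 passed the filter, and Tnfsf13b, which encodes the cytokine BAFF, was the 1 that rose in CAC against Con at 6 weeks (0.25, adjusted p = 0.0318). Il1b stood at 0.31 (adjusted p = 0.0782). Of the 11 receptors 7 rose at 6 weeks and 0 fell, where 21.8% of all tested genes rose and 3.87% fell, with a median of 0.45 beside 0.16 over all tested genes. After rescaling 7 of the 11 rose, where 10.5% of all genes did. Il1r1, the signalling IL-1 receptor, rose by 1.5 (SE 0.11), Tnfrsf1a (TNFR1) by 0.99 (SE 0.10), Tnfrsf1b (TNFR2) by 1.01 (SE 0.14) and Tnfrsf11a (RANK) by 0.42 (SE 0.09). At 8 weeks 2 of 11 rose, where 6.37% of all genes rose and 6.05% fell: Il1r1 by 1.47 (SE 0.24, adjusted p = 0.00333) and Tnfrsf1a by 0.70 (SE 0.16, adjusted p = 0.0157), while Tlr4 stood at 0.76 (adjusted p = 0.0513) and Tlr2 at -0.63 (adjusted p = 0.0544).

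Of the 23 adaptors and kinases 7 rose at 6 weeks and 0 fell, a share near that of all genes (21.8% rose), with a median of 0.20 beside 0.16. After rescaling 4 rose. Myd88, the adaptor of IL-1 and Toll-like receptors, rose by 1.01 (SE 0.11, adjusted p = 1.1e-04), its kinase Irak4 by 0.63 (SE 0.08), the TNF receptor kinase Ripk1 by 0.56 (SE 0.09) and Map3k14 (NIK), which drives p100 processing, by 0.69 (SE 0.14, adjusted p = 0.00665). At 8 weeks Map3k14 (0.59, adjusted p = 0.0163) and Myd88 (0.70, adjusted p = 0.0222) rose and Traf5 (-0.50, adjusted p = 0.0323) and Traf3 (-0.74, adjusted p = 0.0420) fell. That made 2 rises and 2 falls among the 23, where 6.37% of all genes rose and 6.05% fell. Traf3 is known for holding NIK at a low level.

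Of 13 other subunits and inhibitors 11 were tested, and 6 rose at 6 weeks, where 21.8% of all genes did, with a median of 0.37 beside 0.16. After rescaling 4 rose. Of the 6 as deposited, Irak3, a brake on IL-1 and Toll-like receptor signalling, rose by 0.94 (SE 0.13). Tnip2, a partner of A20, rose by 0.79 (SE 0.15), Otulin, which cleaves linear ubiquitin chains, by 0.79 (SE 0.19) and Nfkbie (IκBε) by 0.37 (SE 0.09). At 8 weeks 1 of the 11 rose, Tnip2 (0.41, adjusted p = 0.0308), and 1 fell, Pdlim2 (-0.73, adjusted p = 0.0306). Of all genes 6.37% rose and 6.05% fell there. Of 22 known target genes 16 were tested, and at 6 weeks 5 rose and 3 fell, where 21.8% of all genes rose and 3.87% fell, with a median of 0.18 beside 0.16. After rescaling 4 rose and 3 fell, where 10.5% and 10% of all genes did. Icam1, an adhesion molecule, rose by 0.80 (SE 0.11), the survival gene Bcl2l1 by 1.17 (SE 0.22), the endothelial selectin Sele by 0.85 (SE 0.18) and Birc3 (cIAP2) by 0.43 (SE 0.09). Cd83, a marker of activated antigen-presenting cells, was among the falls at 6 weeks (-0.65, SE 0.15, adjusted p = 0.0104), a gene named there after its value was seen. At 8 weeks Ier3 rose by 0.77 (SE 0.15, adjusted p = 0.00863) and Cd83 fell (-2.32, SE 0.25, adjusted p = 7.8e-04). They were the 1 rise and the 1 fall of the 16 tested, beside 6.37% and 6.05% of all genes. In Con, Cd83 rose by 2.45 (SE 0.16) at 8 against 6 weeks. The adaptors and kinases gave 13 rises and 2 falls in that comparison of Con as deposited, and 6 rises and 8 falls after rescaling. After rescaling 9 of 11 receptors rose and 0 fell, 10 of 16 target genes rose and 1 fell, and 2 of 3 ligands rose. Of the 11 other subunits and inhibitors 4 rose and 4 fell. Of all genes 31.8% rose and 31.8% fell.

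**Figure D5:**
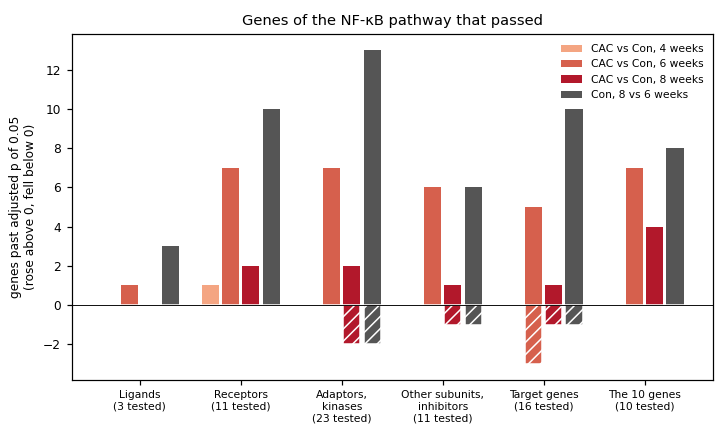
Number of genes of each pathway list that passed (y axis; rises above 0, falls below 0, hatched) in CAC against Con at 4, 6 and 8 weeks and in Con at 8 against 6 weeks, with the number tested under each list (x axis). CAC against Con had most of its rises at 6 weeks, with 7 receptors and 7 adaptors and kinases, and in Con at 8 against 6 weeks 10 receptors and 13 adaptors and kinases rose and 2 adaptors fell, where 54.1% of all genes rose and 9.65% fell.

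The genes varied together to different degrees. Over the 62 libraries, after the mean of each week was subtracted, Bcl3 correlated with Nfkbiz (Pearson r = 0.868) and Map3k8 (0.866), and Nfkb1 with Rela (0.812). Tnfaip3 correlated negatively with Nfkbib (-0.351), Nfkbiz (-0.316) and Bcl3 (-0.284). Within the 22 CAC libraries, centred on their own groups, Bcl3 with Nfkbiz came to 0.655 and Bcl3 with Nfkb2 to 0.0338. The points share library scaling and treatment group, and the values are descriptions. Among 9693 genes with a group mean of at least 5 TPM, those most like Bcl3 were Sbno2, a transcriptional coregulator (0.947), Csf2rb2, a cytokine receptor chain (0.944) and Tmem176b (0.942). Sbno2 was also the gene most like Map3k8 (0.906). Nfkbiz was most like Osmr, the oncostatin M receptor (0.918), Nfkbia like the stress gene Ddit4 (0.840) and Rela like Stx5a (0.911). For Tnfaip3 the highest value was 0.674, with Neurl3.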

How the data were processed

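Total RNA of mouse soleus was made into stranded mRNA libraries and sequenced, per the labels' protocols. The authors deposited TPM values, with mm10 as the build per the submitters' processing notes. No aligner or counting tool, nor whether counting used strand, is stated in the labels. Since TPM does not carry depth, no counting interval was computed. Groups came from the labels.

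Genes with at least 1 TPM in at least 5 of 62 libraries (13529 of 47643) were tested as log2(TPM + 1) with limma 3.58.1 (R 4.3.3, intensity trend), each of 16 comparisons fitted on its own groups, two-sided, with Benjamini-Hochberg adjustment over all tested genes. The fit was first tested on simulated data. Alternatives were a pseudocount of 0.1, no filter, median-of-ratios rescaling, fits of all libraries or of all groups of the weeks compared, a replicate block and leaving out each library. A fit without the 3 libraries of at least 500 TPM of Myh4 was chosen after seeing the data. The members, the lists of pathway and marker genes and the tests were chosen with earlier results of these data known. All 10 members are named. Of each pathway list up to 4 genes with the smallest adjusted p are named per comparison described, as are up to 3 genes most like a member. Positions are from GENCODE M21. Figures used matplotlib 3.10.9 (Python 3.11.15).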

Additional observations from a re-analysis of the deposited data

Results flagged for a closer look

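Of 120 groups of libraries screened, 12 for each of the 10 genes, 7 held a library whose gap to its nearest neighbour was a large share of the group's range. The limit was Dixon's 95% critical value, by which chance marks about 1 in 20 groups. Nfkb1 stood at 11.2 TPM in CAC replicate 2 of 2 weeks, below the next CAC library at 13.3 TPM. Nfkbia stood at 27.4 TPM in NCAC replicate 3 of 2 weeks, below the next at 46.4 TPM. Nfkbib stood at 53.7 TPM in CAC replicate 1 of 8 weeks, above the next at 30.4 TPM, and at 27.5 TPM in Con replicate 4 of 2 weeks, above the next at 24.4 TPM. Tnfaip3 stood at 1.94 TPM in NCAC replicate 4 of 2 weeks, above the next at 1.10 TPM. Map3k8 stood at 0.996 TPM in Con replicate 5 of 2 weeks, below the next at 1.83 TPM, and at 3.15 TPM in Con replicate 1 of 6 weeks, above the next at 1.61 TPM. Map3k8 rose in CAC at 6 weeks with and without that Con library, at 0.86 with it and at 1.00 without it.

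The CAC effect of 2 genes differed between weeks in a test of the difference itself. It was larger at 6 than at 2 weeks by 1.05 for Bcl3 (adjusted p = 0.00755, limma) and by 0.75 for Nfkbiz (adjusted p = 0.0267). The fit of all 62 libraries lost both calls (0.134 for Bcl3 and 0.224 for Nfkbiz), and of the 27 alternatives run 26 kept the call for Bcl3 and 18 that for Nfkbiz.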

How the results depend on the processing

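Of 30 calls of single genes, 15 held under every alternative run, and 452 of their 531 alternatives kept the call. Bcl3 kept all 4 calls of CAC at 6 and 8 weeks, as did Nfkbiz. CAC against Con at 4 weeks gave 3 of 10 genes in the fit of all 62 libraries and 2 in the fit of all groups of that week, against 0. Of all genes these fits called 84 and 140, against 21. At 6 weeks CAC against Con gave 4 rises with no filter and 4 rises and 1 fall after rescaling, against 7 rises. These fits called 2210 and 2772 of all genes, against 3475, and the fit with no filter tested more genes. At 8 weeks CAC against Con gave 2 with the replicate block, which lost Nfkbia (0.0631) and Map3k8 (0.0522), against 4. The block called 743 of all genes there, against 1680. CAC against NCAC at 2 weeks gave 1 after rescaling and 2 in the fit of the week's groups, against 0. The fit of the week's groups called 68 of all genes, against 4. At 4 weeks CAC against NCAC gave 1 with a pseudocount of 0.1 and 1 after rescaling, against 0. It gave 3 in the fit of all libraries and 6 in that of the week's groups. In the same order these fits called 53, 38, 200 and 790 of all genes, against 27. At 6 weeks CAC against NCAC gave 3 with no filter and 8, of which 1 fell, in the fit of the week's groups. Rescaling gave 4 rises and 1 fall, against 5 rises. In the same order these fits called 1855, 4416 and 3054 of all genes, against 3003. At 8 weeks CAC against NCAC gave 2 after rescaling and 8 in the fit of all libraries, against 4. There 605 and 5837 of all genes were called, against 1594. Con at 8 against 6 weeks gave 5 after rescaling, 4 rises and 1 fall, against 8 rises. Rescaling called 8600 of all genes there, against 8624. The change in the CAC effect, 6 minus 2 weeks, gave 1 with a pseudocount of 0.1 and 1 with no filter, against 2. It gave 0 in the fit of all libraries and 1 with the replicate block. In the same order these fits called 282, 215, 24 and 320 of all genes, against 338. The change of 8 minus 6 weeks gave 1 in the fit of all libraries, against 0, where 198 of all genes passed, against 26. The cause was not tested.

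Leaving out each library gave 0 to 2, 4 to 8 and 3 to 4 genes in CAC against Con at 4, 6 and 8 weeks. In CAC against NCAC it gave 0 to 1, 0 to 3, 3 to 7 and 3 to 4 at 2, 4, 6 and 8 weeks, in Con at 8 against 6 weeks 7 to 9, and for the effect at 6 minus 2 weeks 1 to 3. It gave 0 throughout in the other 7 comparisons. How many of all genes passed in each of these fits is not given here. The fits without the Myh4-rich libraries stayed within 1.5 times the main counts.

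Small differences that did not pass changed sign. Rescaling gave -0.0694 for Nfkb2 in CAC against Con at 2 weeks, -0.00343 for Nfkb2 against NCAC at 2 weeks and -0.0156 for Nfkb1 in CAC against Con at 8 weeks. Leaving out each library gave, in CAC against Con, -0.0506 to 0.0808 for Nfkb2 and -0.161 to 0.0152 for Tnfaip3 at 2 weeks and -0.0510 to 0.0592 for Nfkb1 and -0.0232 to 0.125 for Rela at 8 weeks. In CAC against NCAC at 2 weeks it gave -0.00688 to 0.108 for Nfkb2, -0.235 to 0.0153 for Nfkbia and -0.102 to 0.0513 for Tnfaip3.

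The replicate numbers do not pair the samples: deviations of same-numbered libraries correlated at -0.666 to 0.477. The block moved the count of calls as given above, and in CAC against Con at 6 weeks it gave 7, as without it, with Rela lost (0.0845) and Nfkbia gained (0.00887). Depth is unknown, which limits the low genes Tnfaip3, Bcl3, Nfkbiz and Map3k8 most.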
